A study of Rattus norvegicus with 23 samples.

Results

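The first 12 h of differentiation on the stiff substrate were followed in adult rat hippocampal neural stem cells by comparing 3 libraries taken at 12 h with 3 taken at 0 h. These 6 libraries were taken by their labelled substrate and time, out of 23 in the series, which was designed to find genes that depend on stiffness. All groups used here shared female, wild-type cells from hippocampus and a labelled medium of DMEM-F12 and N2 to which 1% fetal bovine serum and 1 uM retinoic acid were added, and differed in time (0, 12, 24 or 36 h) and substrate (soft or stiff). The labels also give the 0 h libraries this medium, and neither what preceded 0 h nor the stiffness in units of pressure is given in the sources used here. Round numbers 1 to 3 tell the libraries of a group apart, and no label ties a round to a separate culture or animal, so p-values measure the spread between these libraries, which may be technical.

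Neural stem cells of the adult hippocampus divide and give rise to neurons and glia. Retinoic acid enters the nucleus and binds receptors that act directly as transcription factors, and it is widely used to start neural differentiation in culture. Serum carries growth factors and is known to favour glial fates. A stiff substrate lets cells build tension through integrins and the actin cytoskeleton, and such tension is known to influence which fate a neural stem cell takes.

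Transcripts were counted as tags near their 3' end. The deposited table lists genes by 32883 Ensembl rat identifiers, 0 of which were paired with a name by the reference table used here. The changes are therefore described over genes as groups, with 4 identifiers shown in full, and the label "neural stem cell" was not set against marker genes. The 0 h libraries held 6205829, 6482206 and 5222749 counts in rounds 1, 2 and 3. The 12 h libraries held 4803755, 2462360 and 2981243, so all 3 were shallower than any 0 h library. Genes with at least 1 count numbered 13887 to 14076 at 0 h and 13094 to 13975 at 12 h. With every library thinned to 2462360 counts they numbered 12911 to 13218 and 13094 to 13309, so the ranges overlapped at equal depth.

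Of 11857 genes tested, 2551 changed between 0 h and 12 h on stiff, a share of 21.5% (Benjamini-Hochberg adjusted p under 0.05 in edgeR's quasi-likelihood test). The genes that rose numbered 1395 (11.8% of those tested) and those that fell 1156 (9.75%). The median log2 fold change was 0.71 among the risen genes, with the middle 50% between 0.44 and 1.25. Among the fallen genes it was -0.60, with the middle 50% between -0.95 and -0.42. Over all tested genes the median was 0.01. Thinned to equal depth, the libraries gave 2172 called genes, of which 2016 were among the 2551. With no filter on low counts the balance turned, at 1248 risen and 1263 fallen genes. Under the other processing choices risen genes stayed more numerous, but in some by little. The counts were 1300 and 1255 with unscaled library totals, and 1241 and 1226 with the 6 libraries fitted alone. With the round as a block they were 1566 and 1326. Counts are relative to each library's total, and fewer cells of a type cannot be told apart from less RNA per cell.

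**Figure D1:**
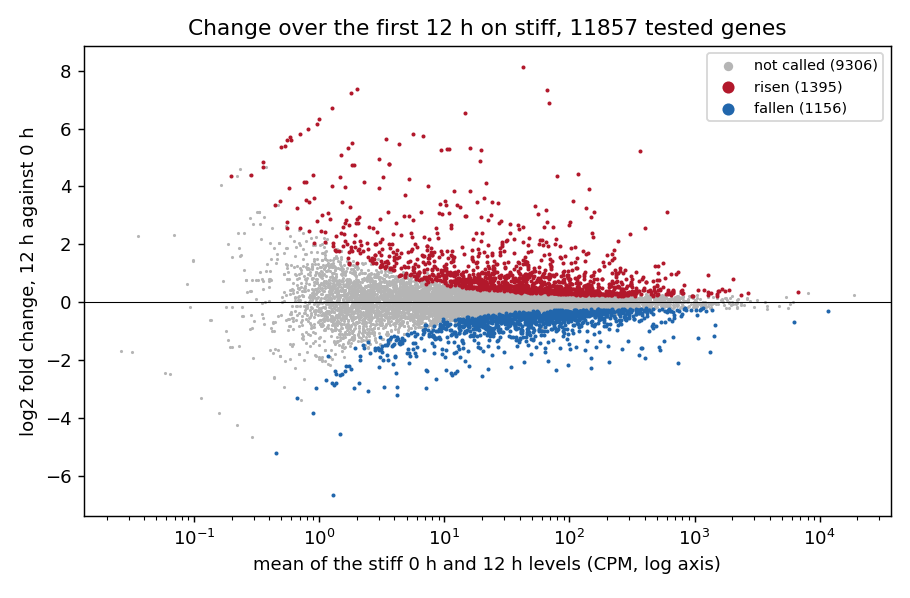
Each point is 1 of the 11857 tested genes, with its level on stiff (mean of the 0 h and 12 h means, in CPM, log axis) against its log2 fold change from 0 h to 12 h. The 1395 risen genes reach a log2 fold change of 8.12, and the 1156 fallen genes, most of them closer to 0, reach -4.55 among genes with counts at both times.

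In 2453 of the 2551 called genes the CPM values of the 3 libraries at 12 h did not overlap those of the 3 at 0 h. The same held for 35.4% of all tested genes, and the high count among called genes follows from the call, which used these libraries. Within a group, log2 CPM correlated across genes with Pearson's r of 0.982 for each pair at 0 h and 0.973 to 0.980 at 12 h. Between the times it lay from 0.950 to 0.961, lower for each of the 9 pairs than for any pair within a group. The last gene called had an adjusted p of 0.049999 and a log2 fold change of 1.32, and the first not called had 0.0501 and -0.83, so neighbours of the threshold can differ widely in size and direction.

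The direction of change was read again in each round's stiff 0 h and 12 h libraries, with those libraries left out when the genes were chosen. Other libraries of that round stayed in the fit. As the rounds may be technical repeats, agreement between them is not independent support. With the round 1 pair left out, 1006 genes were called as risen in the other rounds, and 96.7% of them were higher at 12 h in round 1, where 52.1% of all tested genes were. For rounds 2 and 3 the shares were 98.1% of 842 genes and 96.3% of 966, against 50.3% and 50.7% of all tested genes. Genes called as fallen were lower at 12 h in the round left out in 95.5% of 847, 96.0% of 753 and 96.9% of 731 cases. The sizes were somewhat smaller in the round left out: the risen genes had medians of 0.71, 0.86 and 0.78 on the log2 scale there, and 0.92, 0.93 and 0.85 in the rounds that chose them. The former are differences of log2 CPM with a prior count of 2, and the latter are fitted log2 fold changes. These are unlike measures, so the gap cannot be put down to the choice of genes alone.

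Large changes were mostly rises. Of the genes that rose, 457 did so at least 2-fold and 179 at least 4-fold, and of those that fell, 263 and 50. At least 8-fold rises were found in 81 genes and falls in 6, and at least 16-fold changes in 37 genes and in 1. These counts set a gene with no count in a group at its lower bound, with 3 counts over that group's 3 libraries as the floor. The fitted values, which depend on the prior count for such genes, gave 182 and 51 at 4-fold. With at least 5 CPM required in 3 libraries the fitted values gave 138 risen and 28 fallen genes at 4-fold. The lowest quartile of genes by mean level over all libraries held 35 of the 51 large falls and 80 of the 182 large rises.

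**Figure D2:**
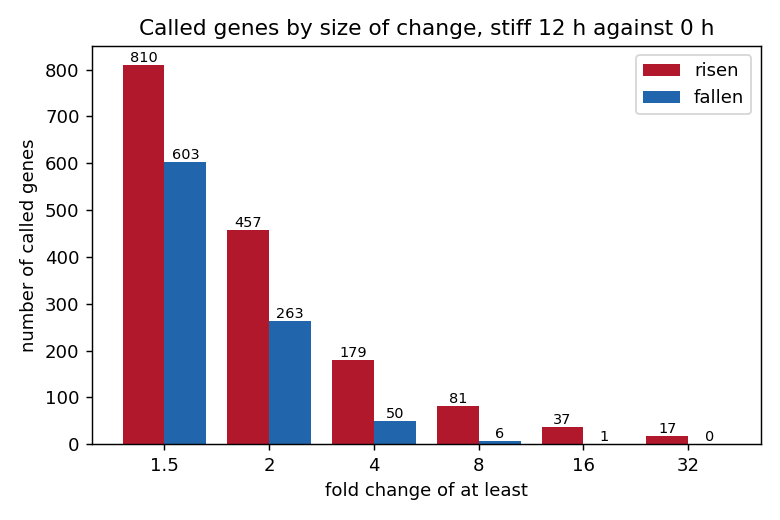
Bars give the number of called genes whose change from 0 h to 12 h on stiff was at least the fold on the x axis, red for risen and blue for fallen, with genes at 0 counts in a group set at their lower bound. Risen genes outnumber fallen ones in every class, by 810 to 603 at 1.5-fold and by 81 to 6 at 8-fold.

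The genes that rose at least 4-fold started from a low level, which a choice by size of rise favours. Over all 1395 risen genes the median was 28.4 to 30.4 CPM in the 0 h libraries. For the genes risen at least 4-fold it was 0.781 to 0.956 CPM in the 0 h libraries and 8.28 to 10.3 CPM in the 12 h libraries. Their median log2 fold change was 2.99, or 2.87 with genes at 0 counts set at their bound. As the choice of such genes implies, the values of the groups did not overlap in 173 of the 182, against 35.4% of all tested genes. The 51 genes that fell at least 4-fold went from medians of 5.35 to 7.03 CPM to medians of 1.02 to 1.28 CPM. The values of the groups did not overlap in 49 of them, which likewise follows from the choice. These falls were measured less sharply than the rises. The median standard error of the log2 fold change was 0.57 for the fallen and 0.48 for the risen genes of this size, against 0.14 for all called genes.

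Some genes went from no counts to a measurable level. Of 26 tested genes with 0 counts in all 3 libraries at 0 h, 16 rose. Such genes passed the filter through counts in other groups and could not be called as fallen, so these numbers describe them and test nothing. Against the floor of 3 counts over the group, which is 0.169 CPM, they were at least 7.38-fold higher at 12 h in the median and at least 24.8-fold higher in the gene with the largest bound. Its pooled level at 12 h was 4.18 CPM, so none of the 16 was abundant. In the other direction, 13 tested genes had 0 counts in all 3 libraries at 12 h and 2 of them fell, by at least 8.09-fold for the larger. The floor at 12 h was higher, at 0.299 CPM, since the pooled total was 10247358 counts against 17910784 at 0 h.

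Calls were more frequent among abundant genes, where the error was smaller. In the lowest quartile of genes by mean level over all libraries (up to 7.74 CPM), 5.73% rose and 3.98% fell, with a median standard error of 0.51 on the log2 scale. In the highest quartile (from 72.2 CPM) 19.2% rose and 13.7% fell, with a median standard error of 0.10. Called genes had median log2 fold changes of 1.90 and -1.61 in the lowest quartile and of 0.46 and -0.41 in the highest. With the larger error only large changes can be called at low levels, so the threshold favours this order of sizes. Whether it accounts for all of the order was not tested. Large rises exceeded large falls in the highest quartile too, with 38 genes risen and 4 fallen at least 4-fold. Since the level is averaged over all libraries, lasting rises move genes to higher quartiles and lasting falls to lower ones. This split is therefore partly set by how the quartiles were formed.

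The clearest rise was that of ENSRNOG00000013794, the gene with the smallest p. It was at 20.8, 23.3 and 12.6 CPM in the 0 h libraries of rounds 1, 2 and 3 and at 715.5, 712.2 and 732.8 CPM in those of 12 h. All 12 h libraries lay far above all 0 h libraries and close to one another. A choice by smallest p favours such separation, here and in the other identifiers shown. The mean went from 18.9 ± 5.57 to 720.2 ± 11.1 CPM (SD, n = 3 each), a 37.6-fold rise (log2 fold change 5.23, SE 0.13, Benjamini-Hochberg adjusted p in edgeR = 5.34e-25).

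ENSRNOG00000015736 was close to absent at 0 h, with 1.79, 0.468 and 1.15 CPM in rounds 1, 2 and 3. At 12 h it was at 142.8, 132.1 and 136.0 CPM, again with no overlap. The log2 fold change was 6.90 (SE 0.32, Benjamini-Hochberg adjusted p in edgeR = 7.28e-24), and its larger error goes with the few counts at 0 h. Leaving out 1 library at a time moved this value between 6.50 and 7.42.

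ENSRNOG00000016552 had the smallest p among fallen genes. Its levels in rounds 1, 2 and 3 were 1171, 1257 and 1154 CPM at 0 h and 288.3, 254.2 and 300.6 CPM at 12 h. Every 12 h library was below every 0 h library, and the mean went from 1194 ± 55.4 to 281.0 ± 24.0 CPM (SD, n = 3 each), 4.24-fold lower (log2 fold change -2.09, SE 0.09, Benjamini-Hochberg adjusted p in edgeR = 6.18e-18). ENSRNOG00000032297 fell from 660.3, 704.8 and 560.3 CPM to 179.0, 154.5 and 167.9 CPM, also without overlap. It was 3.83-fold lower at 12 h (log2 fold change -1.94, SE 0.11, Benjamini-Hochberg adjusted p in edgeR = 2.37e-15).

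**Figure D3:**
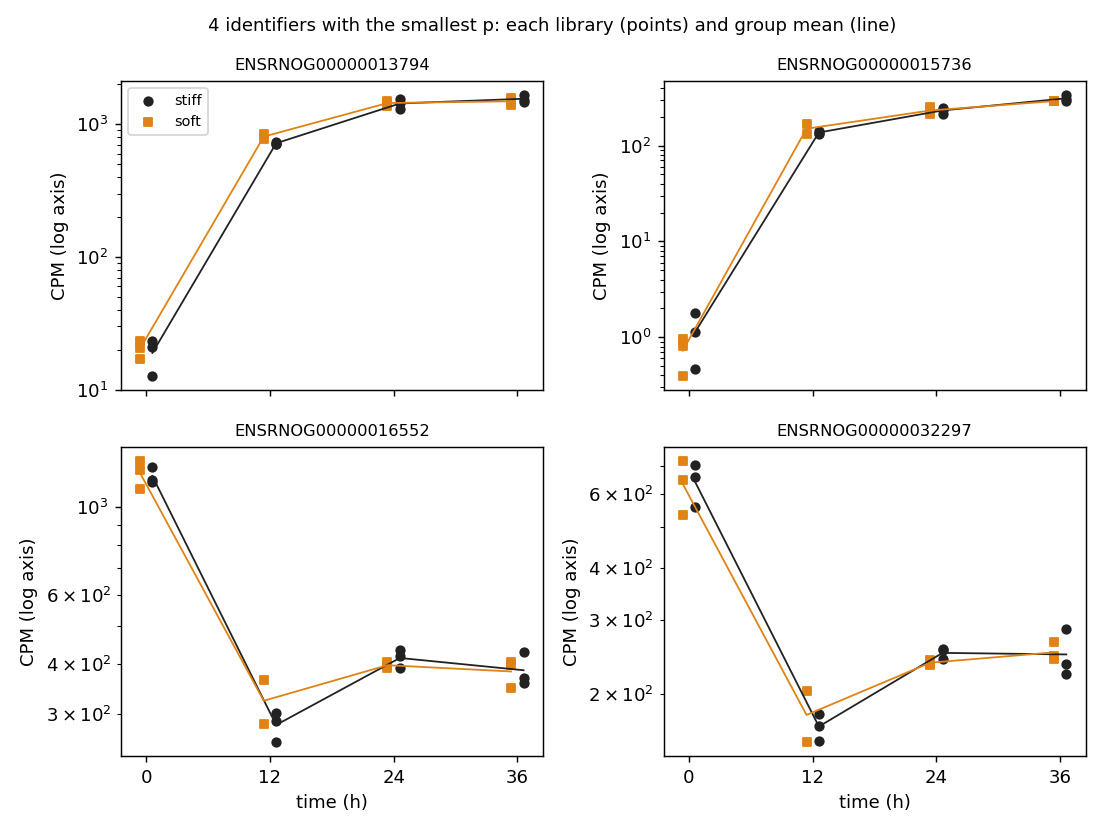
CPM (log axis) of the 2 risen and 2 fallen identifiers with the smallest p against time, with 1 point per library and a line through the group means, black for stiff and orange for soft. On stiff the step from 0 h to 12 h separates all libraries of the groups, and ENSRNOG00000013794 goes on to 1437 CPM at 24 h while ENSRNOG00000016552 returns part of the way, to 414.9 CPM.

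Together the called genes shifted a visible part of each library. The 1395 risen genes held 12.5%, 11.8% and 12.4% of all counts in the 0 h libraries of rounds 1, 2 and 3, and between 17.9% and 18.4% in all 3 of 12 h. The 1156 fallen genes went from 16.4%, 16.8% and 16.2% to 11.1%, 11.2% and 10.9%. These shares follow from how the genes were chosen, and they give the amount: the risen genes gained 5.85 percentage points, and the share of the fallen genes fell by 5.36. The gain was spread over many genes, since the 10 with the largest gains made up 13.1% of it and 119 genes were needed for 50% of it. The loss was more concentrated, with 22.8% in 10 genes and 50% in 88. The genes risen at least 4-fold, though many, were a small part of the RNA, at 0.124% to 0.133% of counts at 0 h and 0.917% to 0.998% at 12 h.

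The levels reached at 12 h were set beside those of the later libraries on stiff. The comparisons with 24 h and 36 h share the 0 h libraries with the one that chose the genes, and are given as values with no test. The risen genes had a median log2 fold change from 0 h of 0.71 at 12 h, then 0.92 and 0.97 at 24 h and 36 h, and held 21.1% ± 0.48 of the counts at 24 h and 22.3% ± 0.19 at 36 h (SD, n = 3 each). The fallen genes had medians of -0.60, -0.79 and -0.81 at the same times, but their share of counts stayed at 11.1% ± 0.30 at 24 h and 11.7% ± 0.06 at 36 h (SD, n = 3 each). Genes risen at least 4-fold had medians of 2.99, 3.62 and 3.68, and those fallen at least 4-fold of -2.44, -2.14 and -2.19. The first group thus stood further from 0 h at the later times than at 12 h, and the second stood closer. Since both were chosen for large changes at 12 h, their 12 h values are somewhat enlarged.

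**Figure D4:**
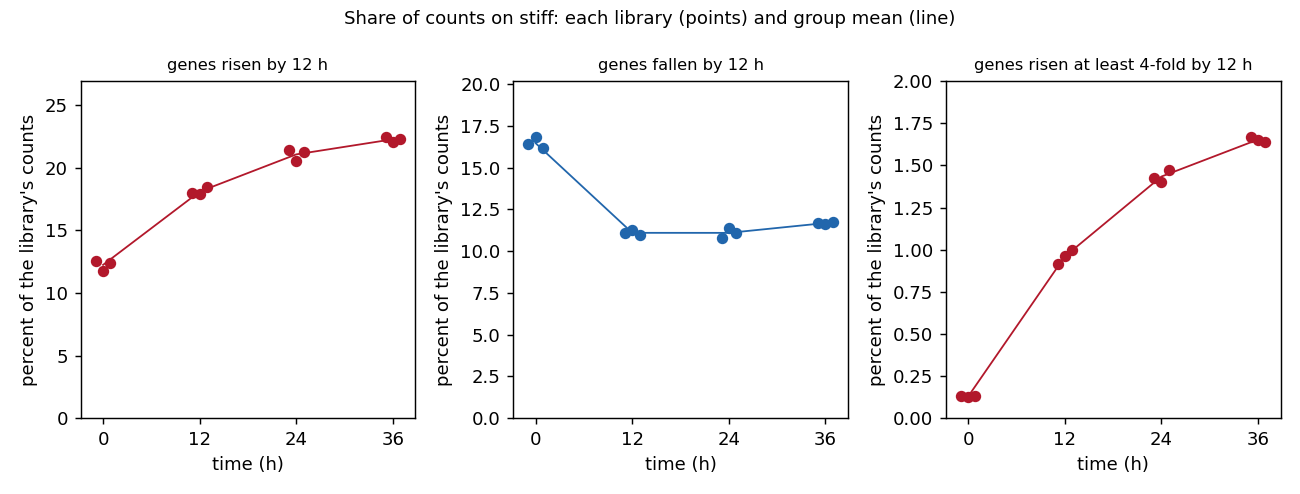
Percent of each stiff library's counts in genes that rose, fell, or rose at least 4-fold by 12 h, against time, with 1 point per library and a line through the group means. The mean share of the risen genes climbs from 12.3% at 0 h to 22.3% at 36 h, and that of the fallen genes drops from 16.5% to 11.1% by 12 h and is 11.1% again at 24 h.

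The 4 identifiers are single cases and need not follow the course of these sets. From 12 h to 24 h, 12.4% of the 1156 fallen genes were called as risen and 29.2% as fallen. Of the 51 fallen at least 4-fold, 5 (9.80%) were called as risen and 2 (3.92%) as fallen. Over all tested genes these shares were 14.5% and 16.1%. ENSRNOG00000013794 was at 1437 ± 129 CPM at 24 h and 1560 ± 92.2 CPM at 36 h (SD, n = 3 each), means that differed by less than the larger SD. ENSRNOG00000015736 was at 233.0 ± 16.4 and 312.0 ± 22.2 CPM (SD, n = 3 each). Both fallen identifiers were higher at 24 h than at 12 h. The log2 fold changes were 0.56 (SE 0.09) for ENSRNOG00000016552 and 0.58 (SE 0.11) for ENSRNOG00000032297. The edgeR quasi-likelihood Benjamini-Hochberg adjusted p were 1.84e-05 and 0.000113. Both were chosen for their fall in the same 12 h libraries, which favours a rise after 12 h. These p-values are therefore no independent support for a return. At 414.9 ± 22.1 and 250.6 ± 7.57 CPM (SD, n = 3 each) at 24 h, both identifiers were still far below their 0 h levels. Across all genes the step from 12 h to 24 h on stiff called 14.5% of tested genes as risen and 16.1% as fallen, so this next step was larger in number than the first. It shares the 12 h libraries with the first step.

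The same 12 h on the soft substrate, measured in 5 separate libraries, brought much of the same change. On soft 15.2% of tested genes rose and 13.9% fell. Of the 1395 genes risen on stiff, 1007 were called as risen on soft, which is 72.2% of the stiff list and 55.8% of the soft list. Of the 1156 fallen on stiff, 713 were called as fallen on soft, 61.7% of the stiff list and 43.2% of the soft list. By size of the rise on stiff, 67.9% of genes risen less than 2-fold, 78.5% of those risen 2- to 4-fold and 84.6% of those risen at least 4-fold were called as risen on soft. For the falls these shares were 58.5%, 74.5% and 64.7%, with no steady order, and differences between the classes were not tested. The medians on soft were 0.63 for the risen genes and -0.52 for the fallen ones. Since both lists were chosen on the stiff libraries, their stiff medians of 0.71 and -0.60 are somewhat enlarged.

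None of the 4 identifiers showed a called difference between the substrates. The change on stiff minus that on soft was -0.07 for ENSRNOG00000013794 (95% interval -0.45 to 0.31), -0.77 for ENSRNOG00000015736 (-1.83 to 0.30), -0.17 for ENSRNOG00000016552 (-0.45 to 0.11) and -0.10 for ENSRNOG00000032297 (-0.43 to 0.23) on the log2 scale. For ENSRNOG00000015736 the interval is wide and leaves room for a rise on soft more than 2-fold larger. The edgeR quasi-likelihood Benjamini-Hochberg adjusted p of these differences lay from 0.592 to 0.930.

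Tested directly, the change over 12 h differed between stiff and soft in 222 genes, 1.87% of those tested, and in 215 of them it was higher on stiff. Of the 215, 170 were not called on stiff in either direction, 29 rose there and 16 fell. These proportions are close to those among all 11857 tested genes, of which 9306 were not called on stiff, 1395 rose and 1156 fell. For these 170 genes the median log2 fold change was 0.04 on stiff and -1.06 on soft, where all 170 were called as fallen. Choosing genes with a higher change on stiff and no call there largely fixes these values, which are given as a description. Their median level was 60.2 to 83.5 CPM in the stiff 0 h libraries and 74.0 to 81.6 CPM in those of stiff 12 h, which overlap. On soft it was 67.6 to 76.3 CPM at 0 h and 29.5 and 34.2 CPM in the 2 libraries at 12 h, and at 24 h 65.2 to 76.8 CPM. The 16 genes that fell on stiff had a median log2 fold change of -0.47 there and -1.40 on soft. Among the 29 that rose on stiff the medians were 0.56 and -0.22, and 5 of them were called as risen on soft as well.

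Large changes on stiff were called as different from soft about as often as all tested genes, of which 1.87% were. Among the 182 genes risen at least 4-fold, the change was called higher on stiff in 3 and lower in 1, and among the 51 fallen at least 4-fold it was called higher in 0 and lower in 1. This does not show that the others changed alike. The median of the change on stiff minus that on soft was 0.25 for the risen and -0.64 for the fallen genes of this size. Choosing genes for large changes on stiff favours medians of these signs, so they do not show unlike change either. Of the soft 12 h libraries, replicate 1 stood somewhat apart. It had the lowest TMM factor of the 23 libraries, 0.933, and the highest share of counts in its 10 most abundant genes, 9.29%. In replicate 3 the factor was 0.978 and the share 8.88%, and in the stiff 12 h libraries the factors were 0.975 to 0.990 and the shares 7.78% to 7.82%. Without soft 12 h replicate 1 the count of differing genes was 195, 177 of them higher on stiff. The count of 222 rests on single libraries more than the calls on stiff do: leaving out soft 12 h replicate 3 brought it to 87, with the spread of the 1 remaining library taken from the other groups, and leaving out stiff 0 h replicate 1 brought it to 142.

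**Figure D5:**
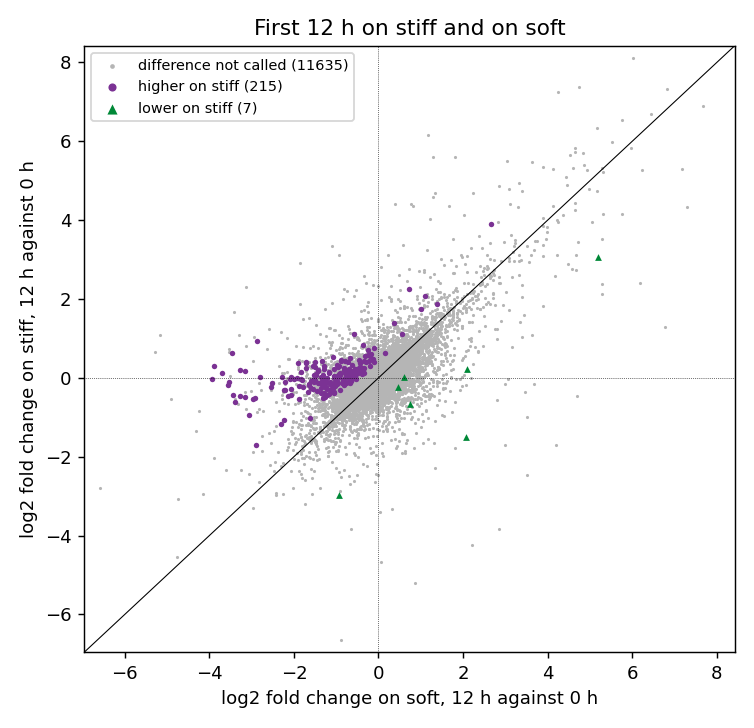
Log2 fold change from 0 h to 12 h of each tested gene on soft (x axis) and on stiff (y axis), with the line of equal change. Genes whose difference was called higher on stiff (215, purple) lie mostly at negative values on soft and near 0 on stiff, and 7 (green triangles) were called lower on stiff.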

How the data were processed

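Total RNA of cell pellets was made into QuantSeq FWD libraries, which read tags near the 3' end of polyadenylated RNA, per the labels' protocols. HISAT2 2.1.0, HTSeq, FastQC and build rn6 are named in the submitters' processing notes. How strand, duplicates and annotation were handled is not given in the sources used here, and reads of overlapping genes or close paralogs could have been split. Values are raw read counts for each gene, as deposited by the authors. Libraries were grouped by title. The 6 libraries, the lists and the tests were chosen with earlier results of these data known.

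edgeR 4.0.16 (R 4.3.3) fitted 8 group means to all 23 libraries with TMM factors, after filterByExpr with a minimum count of 10 and total of 15. Contrasts were stiff 12 h minus 0 h, the same on soft, their difference, and stiff 24 h minus 12 h. A gene is called at a Benjamini-Hochberg adjusted p under 0.05. Standard errors are Wald errors of the fit, and intervals use 31.9 degrees of freedom. CPM uses TMM-scaled totals, and log2 CPM a prior count of 2. The rule for named genes printed the 2 risen and 2 fallen identifiers with the smallest p, as no identifier had a name. The gene lists and promoter motifs fixed with it were not used for the same reason. Every replicate pair within the 2 groups differed by more than sampling noise (chi-square per degree of freedom 2.42 to 6.81 over genes with at least 20 counts). The tests were first run on simulated data. Alternatives were RLE factors, unscaled totals, 2 other filters, DESeq2 1.42.0, the round as a block, fewer groups, each library left out and, added after the data were seen, thinning. Floors and totals cover counting error only. Figures were drawn with matplotlib 3.10.9.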

Additional observations from a re-analysis of the deposited data

Results flagged for a closer look

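The change from 0 h to 12 h differed between the substrates, by a test of the difference itself, in 222 genes (1.87% of those tested), 215 of them higher on stiff. Both soft 12 h libraries were deeper than all 3 stiff 12 h libraries, at 5428086 and 6519349 counts. At equal depth, with all libraries thinned to 2462360 counts, 179 genes were called, 152 of them among the 222.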

How the results depend on the processing

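For the first 12 h on stiff, all 14 alternatives kept the count within 1.5 times of 2551. It was 2892 with the round as a replicate block, 2516 with DESeq2, 2546 with RLE factors and 2467 with the 6 libraries fitted alone. Leaving out 1 library gave 1908 to 2272. The 4 identifiers kept their direction and their call under each of the 14. The count of genes risen at least 4-fold ranged from 131 to 194, and that of genes fallen at least 4-fold from 28 to 58. The step from 12 h to 24 h ranged from 2777 to 3978 genes. The difference between substrates ranged from 87 to 278 genes with 1 library left out, and was 318 with no filter and 287 with the block. Its 7 genes lower on stiff were 41 with no filter, 19 with the block, 11 with DESeq2, 1 to 18 with 1 library left out and 2 after thinning. The rounds were not treated as pairs: deviations of same-numbered 0 h and 12 h libraries correlated at 0.05, 0.09 and 0.07 across genes, although each of the 6 libraries correlated best with its own number. Without scaling factors the median over all genes moved from 0.01 to -0.0044. Alternatives for gene lists were not run, as no list could be matched. Precision was lowest among genes of low level, with a median standard error of 0.51 on the log2 scale in the lowest quartile.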
